A study of Homo sapiens with 2 samples.

Results

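The genes described here encode subunits of the receptors for glutamate, GABA, glycine and acetylcholine. They were examined in untreated U87MG cells, an established human glioblastoma line, grown in MEM with 10% FBS and 1% antibiotics. The series holds 2 libraries of these cells, 1 of mRNA and 1 of small RNA, with no normal brain cell, no other line and no replicate, so every level below is a description of 1 library and no difference could be set against a spread between replicates. Members were chosen by name: protein_coding rows whose symbol starts with GRIA, GRIK, GRIN1, GRIN2, GRIN3, GRM, GABR, CHRN, CHRM, GLRA or GLRB and ends in a number or a single subunit letter. This gave 35 of the 14376 listed protein_coding genes, out of 21445 genes listed in all.

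As background, fast signalling at synapses runs through ion channels assembled from several subunits around a pore. AMPA, kainate and NMDA receptors open to glutamate and depolarise the cell, GABA type A and glycine receptors pass chloride, and nicotinic receptors open to acetylcholine. Metabotropic glutamate receptors and muscarinic receptors are not channels and act through G proteins. Most channels need particular partners: NMDA receptors contain GRIN1, most GABA type A receptors contain alpha and beta subunits, and the glycine receptor beta subunit needs an alpha subunit to open. In glioma, glutamate and GABA receptors on tumour cells have been studied as a route by which neurons act on the tumour.

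Levels are in FPKM, a unit the authors computed that divides the fragments of a gene by its length and by library size, so levels of different genes can be set beside each other. How deeply the mRNA was sequenced is unknown, and no interval can be given for a level. A gene was counted as expressed at an FPKM of 1 or more. The file lists no gene at 0, and a gene without a row is reported as such and not as silent.

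Most listed receptor subunit genes had low levels in the mRNA library. Of the 35 members, 8 were at 1 FPKM or more (22.9%), against 77.5% of all listed protein_coding genes. The median of the members was 0.255 FPKM, against 7.82 FPKM for all listed protein_coding genes. Only GABRA3 lay above that coding median, and the other 34 members lay below it. At a threshold of 0.1 FPKM 23 members passed, against 94.0% of the coding genes. At 0.5 FPKM 11 passed, against 82.9%, and at 2 FPKM 7, against 71.4%. Another 15 members were between 0.1 and 1 FPKM, and 12 were under 0.1 FPKM. The 8 expressed members held 85.5% of the summed FPKM of all members, and GABRA3 alone held 32.5%.

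**Figure D1:**
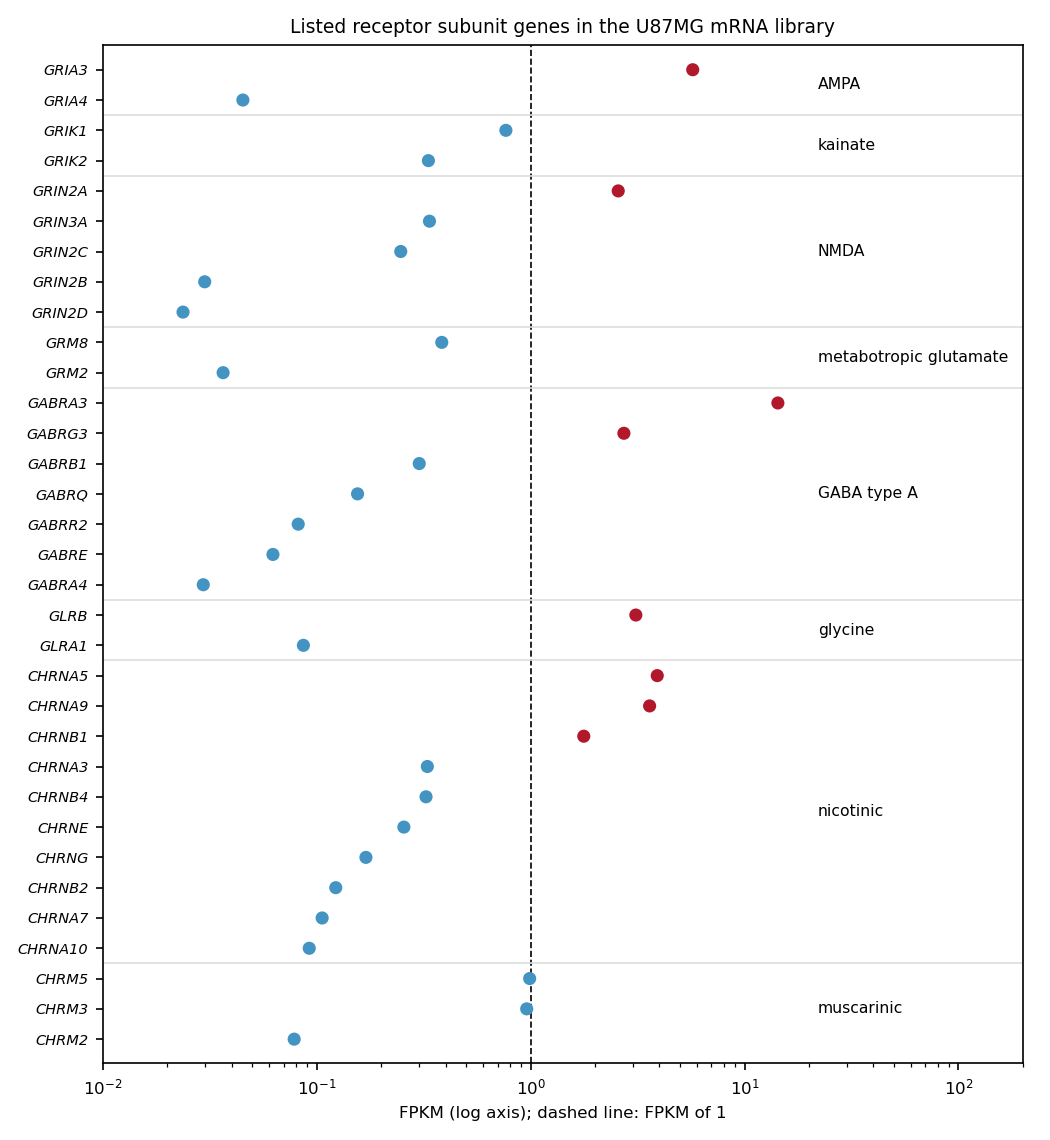
FPKM of 33 of the 35 listed receptor subunit genes (log axis), grouped by family, with genes at 1 FPKM or more in red and the others in blue. GABRA3 stands highest at 14.3 FPKM, and the dashed line at 1 FPKM separates 8 genes from the other 25 drawn, with CHRM5 and CHRM3 just below it.

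Many genes of the same families had no row. The name rule picks 68 protein-coding genes from the RefSeq gene table, of which 35 (51.5%) had a coding row, against 68.4% of all 20052 RefSeq protein-coding genes. Of the other 33, GABRR3, a rho subunit, is listed at 0.0251 FPKM but typed as a polymorphic pseudogene, which keeps it outside the rule. By number, the GABA type A family had the most genes without a coding row, 11 of 19. The nicotinic family followed with 6 of 16 and the metabotropic glutamate family with 5 of 8. AMPA lacked 2 of 4, kainate 3 of 5, NMDA 2 of 7, glycine 2 of 4 and muscarinic 2 of 5. As a share of the family, metabotropic glutamate and kainate lacked more than GABA type A, and nicotinic lacked less than all but NMDA. The members at 1 FPKM or more were spread over the families as follows: nicotinic 3, GABA type A 2, AMPA, NMDA and glycine 1 each, and kainate, metabotropic glutamate and muscarinic 0. These counts move with the threshold: at 0.5 FPKM muscarinic had 2 and kainate 1.

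**Figure D2:**
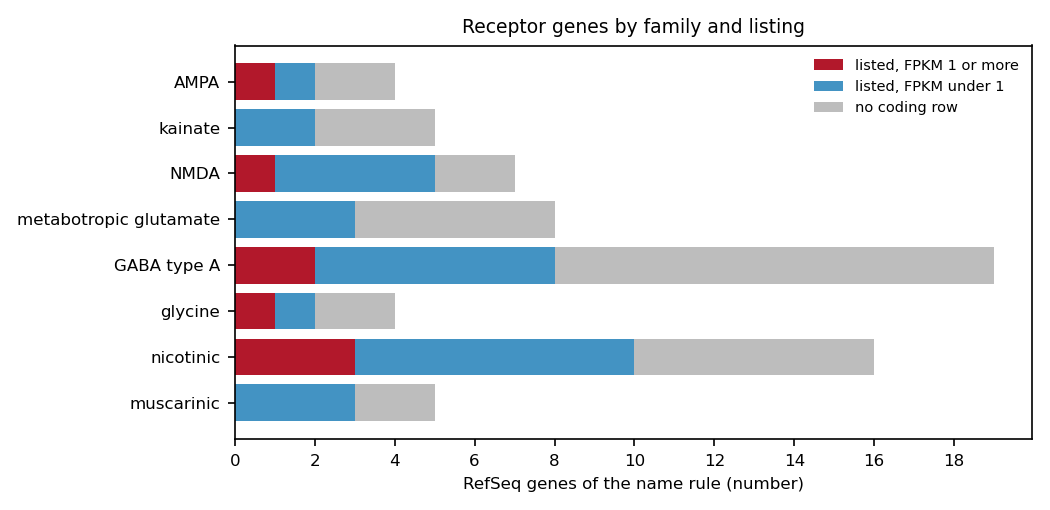
Number of RefSeq protein-coding genes of each receptor family, split into listed at 1 FPKM or more (red), listed under 1 FPKM (blue) and without a coding row (grey). The GABA type A bar holds 19 genes, of which 2 are red and 11 grey, and the nicotinic bar holds 16, of which 3 are red.

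Among the AMPA receptor genes, which carry most fast excitation in the brain, GRIA3 stood out. GRIA3 was at 5.72 FPKM, the second highest value of all members, and GRIA4 at 0.0451 FPKM, a ratio of 127. GRIA1 and GRIA2 had no row. GRIA2 is the subunit whose mRNA is edited at the pore so that the channel keeps calcium out, and the editing enzyme for that site, ADARB1, was at 3.57 FPKM.

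The NMDA receptor genes were led by GRIN2A, a glutamate-binding subunit that rises as the brain matures. GRIN2A was at 2.57 FPKM. GRIN3A, a glycine-binding subunit, was at 0.336 FPKM and the cerebellar subunit GRIN2C at 0.247 FPKM. The subunits of the young brain were lower still, GRIN2B at 0.0299 and GRIN2D at 0.0237 FPKM. GRIN1, the subunit that all conventional NMDA receptors share, had no row, nor had GRIN3B.

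Kainate and metabotropic glutamate receptor genes were all below 1 FPKM. GRIK1 was at 0.766 FPKM and GRIK2 at 0.333 FPKM; both can form channels without other kainate subunits. GRIK3, GRIK4 and GRIK5 had no row. Of the metabotropic receptors, GRM8, which couples to inhibitory G proteins, was at 0.384 FPKM. GRM2, of the same coupling, was at 0.0365 FPKM. GRM3, GRM4, GRM5, GRM6 and GRM7 had no row.

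GABRA3, the alpha3 subunit of the GABA type A receptor, was the highest of all 35 members. It was at 14.3 FPKM, rank 4923 of the 14376 coding genes, above 65.8% of them. Its level was 2.501 times that of GRIA3, the next member, and 5.25 times that of GABRG3, the gamma3 subunit, which followed within the family at 2.73 FPKM. Of the beta subunits, which form the GABA binding site together with alpha, GABRB1 was at 0.301 FPKM and GABRB2 had no row. GABRA3 was 47.5 times GABRB1 in FPKM. The rarer subunits GABRQ (theta), GABRR2 (rho) and GABRE (epsilon) were at 0.155, 0.0819 and 0.0624 FPKM, and the alpha subunit GABRA4 was at 0.0295 FPKM. The alpha subunits GABRA2, GABRA5 and GABRA6 had no row, nor had GABRD (delta), GABRG1 (gamma1), GABRP (pi) and GABRR1 (rho).

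GABRA3 also holds miRNA hairpins, which give a reading of the same locus from the small RNA library. In the RefSeq gene table, 7 miRNA hairpins lie within the span of a receptor gene: 3 in GABRA3, 2 in GABRE, 1 in GRM8 and 1 in CHRM2. The mature forms of those in GABRA3 and GABRE with 10 or more reads are shown because their reads can be set beside the level of the gene around them. They are printed 5′ to 3′ as the deposited file lists them, with T written as U and the seed, bases 2 to 8, in capitals:
miR-105-5p: uCAAAUGCucagacuccuguggu
miR-105-3p: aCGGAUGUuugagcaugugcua
miR-767-5p: uGCACCAUgguugucugagcaug
miR-767-3p: uCUGCUCAuaccccaugguuucu
miR-224-5p: cAAGUCACuagugguuccguu
miR-452-5p: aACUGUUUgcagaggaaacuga

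The miRNAs inside GABRA3 had far more reads than those inside the other receptor genes. miR-767-5p had 1720 reads, rank 122 of the 1224 listed mature miRNAs and 0.0146% of the 11785001 miRNA reads (exact 95% interval 0.0139 to 0.0153%). miR-105-5p had 1067 reads, rank 149 and 0.00905% of the reads (0.00852 to 0.00961%). miR-767-3p had 99 reads and miR-105-3p 33, so that the 5p arm held 94.6% of the miR-767 reads (93.4 to 95.6%) and 97% of the miR-105 reads (95.8 to 97.9%). Together the 4 mature forms had 2919 reads. Intervals cover counting error only, since the reads carried no molecular identifiers and copies of 1 molecule cannot be told apart.

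Inside GABRE, at 0.0624 FPKM, miR-224-5p had 57 reads, miR-452-5p 12 and miR-452-3p 1, which sum to 70. miR-592 inside GRM8, at 0.384 FPKM, had 6 reads, and both arms of miR-490 inside CHRM2, at 0.0784 FPKM, had no row. The gene with the highest FPKM of the 4 thus also held the miRNAs with the most reads, but the order of the other genes was not the same: GABRE had the lowest FPKM of the 4 and the second highest miRNA sum. GABRE, GRM8 and CHRM2 lie on the same strand as their miRNAs in the RefSeq tables; the strand of GABRA3 was not checked. The values come from different libraries and units, with 4 genes in all, and no relation was tested.

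**Figure D3:**
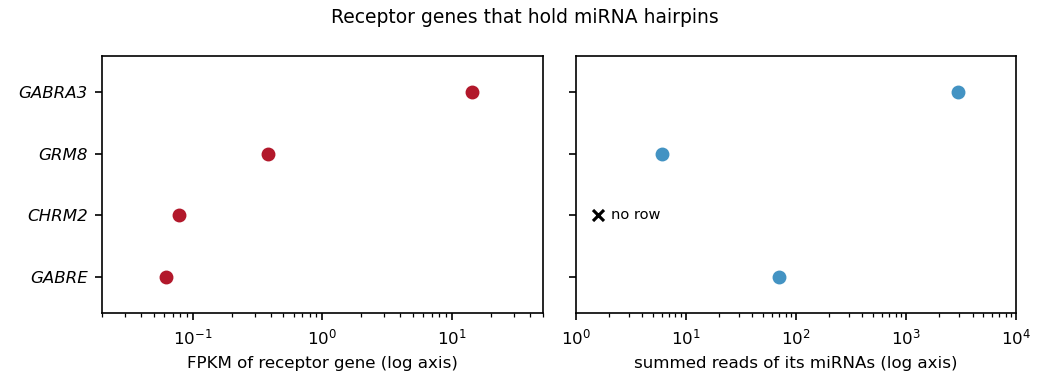
Left, FPKM in the mRNA library of the 4 receptor genes that hold miRNA hairpins (log axis); right, summed reads of the mature miRNAs inside each gene in the small RNA library (log axis), with a cross for CHRM2, whose miRNAs have no row. GABRA3 is highest in both panels, at 14.3 FPKM and 2919 reads, and GABRE is lowest on the left but second on the right with 70 reads.

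The miR-105 reads cannot be assigned to 1 gene copy, because MIR105-1 and MIR105-2 carry the same mature sequences on both sides of MIR767. The RefSeq hairpins (GRCh38.p14, minus strand) are shown to make this visible, with the mature arms in capitals:
MIR105-1 (chrX:152392219-152392299): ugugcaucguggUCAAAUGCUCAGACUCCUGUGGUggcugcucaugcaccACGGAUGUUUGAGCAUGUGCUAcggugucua
MIR767 (chrX:152393421-152393529): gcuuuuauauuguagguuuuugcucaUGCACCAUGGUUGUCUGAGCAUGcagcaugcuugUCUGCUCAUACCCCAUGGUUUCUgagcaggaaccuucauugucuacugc
MIR105-2 (chrX:152394412-152394492): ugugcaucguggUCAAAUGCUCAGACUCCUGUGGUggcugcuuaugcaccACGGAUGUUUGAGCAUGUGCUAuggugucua
The miR-105 hairpins are both 81 bases long and differ at 2 positions, C43U and C73U, counted from 1 at the 5′ end with the base of MIR105-1 first. Both positions lie outside the capitals.

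The 5p seeds of miR-105 and miR-767 were found in no other listed miRNA at bases 2 to 8. The first 6 bases of the miR-767-5p seed, GCACCA, stand 1 base later in miR-29a-3p, miR-29b-3p and miR-29c-3p, which had 82988, 4651 and 135 reads. For miR-224-5p the deposited sequence of 21 bases starts 1 base later than the RefSeq entry of 25 bases, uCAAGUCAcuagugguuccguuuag, so the seed depends on which of the entries is used.

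The coding genes next to GABRA3 on chromosome X were below 1 FPKM or had no row. Between GABRE and GABRQ, its nearest receptor neighbours, the coding gene MAGEA10 was at 0.283 FPKM, and MAGEA3, on the other side of GABRQ, was at 0.154 FPKM. Both belong to the MAGE cancer-testis antigens, which are usually silent outside germ cells and tumours. GABRA3 was 92.3 times GABRQ and 229 times GABRE in FPKM. MAGEA4, next to GABRE, had no row.

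In the GABA type A gene cluster on chromosome 4, no gene reached 1 FPKM, while its flanking genes did. GABRB1 was at 0.301 FPKM and GABRA4 at 0.0295 FPKM, and GABRG1 and GABRA2 had no row. The cluster lies between GNPDA2 at 21.8 FPKM and COMMD8 at 12.2 FPKM.

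**Figure D4:**
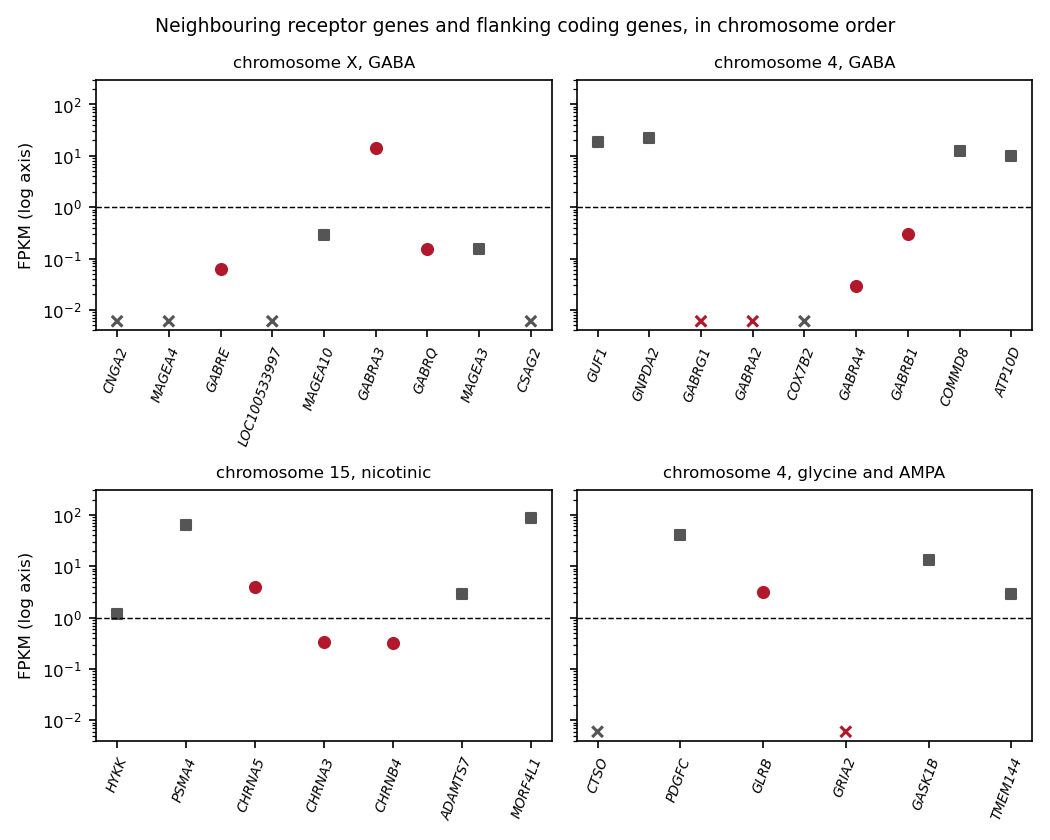
FPKM (log axis) of neighbouring receptor genes (red circles) with the coding genes between them and the 2 nearest on each side (grey squares), in RefSeq gene order and not to scale; crosses at the bottom mark genes with no row, and the dashed line is 1 FPKM. Only 4 clusters are drawn; in these, GABRA3, CHRNA5 and GLRB are the red circles above the line, each beside receptor genes below it or without a row.

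Of the glycine receptor genes, the beta subunit was well above the 1 alpha subunit with a row. GLRB, which ties the receptor to the scaffold protein gephyrin, was at 3.10 FPKM, and GLRA1, the alpha subunit of the adult spinal cord, at 0.0866 FPKM, a ratio of 35.8. GLRA2 and GLRA3 had no row. Gephyrin itself (GPHN) was at 18.99 FPKM.

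By number, the nicotinic family had the most expressed members, 3 of its 16 genes, and they belong to different receptor types. By share it did not lead: 3 of its 10 listed genes were expressed, against 1 of 2 for AMPA and for glycine. Of all listed protein_coding genes, 77.5% were. At a threshold of 2 FPKM the nicotinic family had 2 such members, as had the GABA type A family. CHRNA5, an accessory subunit that joins receptors of alpha3 and beta4, was at 3.91 FPKM. CHRNA9, which pairs with alpha10 in hair cells of the inner ear, was at 3.60 FPKM. CHRNB1, the beta subunit of the muscle receptor, was at 1.77 FPKM. In each case the usual partners were lower or without a row. CHRNA3 was at 0.329 FPKM and CHRNB4 at 0.324 FPKM, against which CHRNA5 was 11.9 and 12.0 times higher. CHRNA10 was at 0.0922 FPKM, and CHRNA9 was 39.02 times higher. Of the muscle subunits, CHRNE (adult) was at 0.255 FPKM and CHRNG (fetal) at 0.170 FPKM, and CHRNA1 and CHRND had no row.

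The main nicotinic receptors of brain neurons were low. CHRNB2 was at 0.123 FPKM and its partner CHRNA4 had no row. CHRNA7, which forms channels by itself, was at 0.106 FPKM, and CHRFAM7A, a fusion gene that carries a near-identical copy of part of it, was at 0.0449 FPKM, so reads may have been split between them. CHRNA2, CHRNA6 and CHRNB3 had no row. CHRNA5, CHRNA3 and CHRNB4 are neighbours on chromosome 15, next to the proteasome gene PSMA4 at 62.7 FPKM and ADAMTS7 at 2.94 FPKM.

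Both higher muscarinic receptor genes ended just under the threshold. CHRM5 was at 0.989 FPKM and CHRM3 at 0.958 FPKM; both couple to Gq. CHRM2, the main receptor of the heart, which couples to inhibitory G proteins, was at 0.0784 FPKM. CHRM1 and CHRM4, which are prominent in the forebrain, had no row.

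For 7 members the RefSeq span overlaps that of another coding gene, and whether reads were counted by strand is not given in the sources used here. CHRM5 lies within the span of AVEN (5.84 FPKM), CHRNE overlaps MINK1 (12.2 FPKM) and C17orf107 (0.171 FPKM), CHRNG overlaps TIGD1 (2.50 FPKM), GRIN2D overlaps KDELR1 (33.8 FPKM), GRIN3A overlaps PPP3R2 (no row), and CHRNA5 and CHRNA3 overlap each other. The levels of these members are therefore less certain. Of the 8 expressed members CHRNA5 is the only one among them.

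Genes for assembly and scaffolding had higher levels than the receptors. Of all listed protein_coding genes, 77.5% reached 1 FPKM, and the list totals below also include genes without a row. The median was 18.99 FPKM for assembly and anchoring of GABA type A receptors and 4.01 FPKM for glutamate receptor scaffolds, against 0.255 FPKM for the 35 members and 7.82 FPKM for all listed coding genes. Of 14 genes for assembly and anchoring of GABA type A receptors, 10 were at 1 FPKM or more, led by GABARAP (147 FPKM), GABARAPL2 (68.3), UBQLN1 (68.1) and CLPTM1 (49.6); PLCL2 was at 3.22 and PLCL1 at 0.0549. Several of these serve autophagy or protein turnover in all cells. Of 20 glutamate receptor scaffold genes, 12 reached 1 FPKM, and the highest were DLG1 (69.03 FPKM), HOMER3 (52.9), DLGAP4 (29.8) and HOMER2 (20.3), while DLG2 was at 0.358 and DLGAP2 at 0.0349. DLG4, the postsynaptic scaffold PSD-95, was at 6.92 FPKM.

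Auxiliary subunits, which are more specific to receptors, were mostly without a row, and the listed ones had a median of 0.266 FPKM. The share of all listed protein_coding genes at 1 FPKM or more was 77.5%, which leaves out genes without a row. Of 16 glutamate receptor auxiliary genes, 11 had no row, and 2 of the 5 listed were at 1 FPKM or more. The expressed ones were NETO2, which binds kainate receptors, at 29.4 FPKM and CNIH3, which binds AMPA receptors, at 7.14 FPKM. CNIH2 was at 0.266, SHISA7 at 0.110 and SHISA9 at 0.0355 FPKM. Of 13 nicotinic chaperones and modulators, 10 had a row, and 3 of these were at 1 FPKM or more. They were AGRN (9.99 FPKM), which organises the nerve-muscle synapse, LYPD1 (3.93) and LRP4 (1.74). RAPSN, which clusters the muscle receptor, was at 0.958 FPKM, and the chaperones RIC3 and TMEM35A were at 0.0635 and 0.0585 FPKM. Of the RNA editing enzymes ADAR was at 36.4 FPKM and ADARB1 at 3.57 FPKM, and ADARB2 had no row.

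Genes for G proteins that serve metabotropic and muscarinic receptors, and for proteins that act with or after these G proteins, were all listed. Of 16, 12 were at 1 FPKM or more (75.0%), close to the 77.5% of all listed protein_coding genes. The highest were GNAI3 (49.8 FPKM), ITPR3 (37.4), ITPR1 (34.5) and GNAQ (26.01). PLCB2 was at 0.454 FPKM and GNAO1, the main inhibitory G protein of neurons, at 0.0377 FPKM. These genes serve many other receptors.

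Genes that make and clear the transmitters were uneven. The list totals include genes without a row, and 77.5% of all listed protein_coding genes reached 1 FPKM. Of 12 genes for GABA and glycine, 4 were at 1 FPKM or more: SHMT2 (48.3 FPKM), a mitochondrial enzyme that makes glycine, GAD1 (11.03), which makes GABA, ABAT (3.65), which breaks it down, and SLC6A9 (1.83), a glycine transporter. SLC6A13 was at 0.263 and GLDC at 0.0651 FPKM, and GAD2 and the vesicular transporter SLC32A1 had no row. Of 12 genes for glutamate, 6 reached 1 FPKM, with GLUL (35.3 FPKM), SLC1A3 (19.3) and SLC1A1 (10.2) among them. Lower ones were SLC1A2 at 0.900 and GLS2 at 0.690 FPKM; the vesicular transporters SLC17A6, SLC17A7 and SLC17A8 had no row. Of 8 acetylcholine genes, SLC44A1 (18.4 FPKM), a choline transporter, and BCHE (6.19), which splits choline esters, were at 1 FPKM or more, and the other 6, with CHAT and ACHE among them, had no row.

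Receptors for other transmitters included a few higher genes. Over 8 lists with 50 genes, 18 genes had a row, where 68.4% of all RefSeq protein-coding genes had one. Of those 18, 9 were at 1 FPKM or more, against 77.5% of all listed protein_coding genes. HRH1, a histamine receptor, was at 14.8 FPKM, while HRH4 was at 0.0335. Of the adenosine receptors ADORA2B was at 12.2 and ADORA2A at 4.70 FPKM, with ADORA3 at 0.312 and ADORA1 at 0.218. P2RX4, an ATP-gated channel, was at 8.50 FPKM, P2RX7 at 2.59 and P2RX6 at 2.35. Of 17 serotonin receptor genes, HTR7 (2.46 FPKM) and HTR2B (1.51) were at 1 FPKM or more, with HTR2A at 0.300 and HTR6 at 0.0655. ADRA1B was at 1.52 FPKM, the 1 of 9 adrenergic receptor genes above the threshold. None of the dopamine, GABA type B and delta glutamate receptor genes reached 1 FPKM; DRD3 was at 0.173 and GABBR2 at 0.125 FPKM, and GABBR1 and the other dopamine receptor genes had no row.

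**Figure D5:**
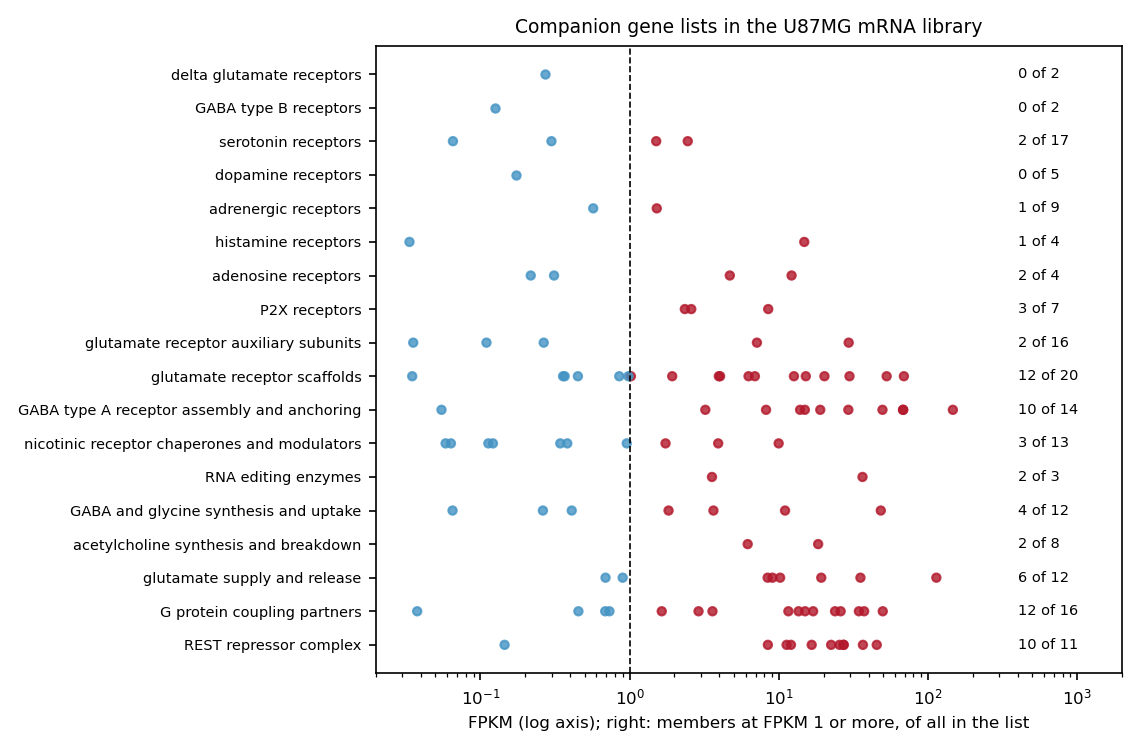
FPKM of each listed gene (points, log axis) in the companion gene lists, with genes at 1 FPKM or more in red and the others in blue, and on the right the number at 1 FPKM or more out of all genes in the list. The scaffold, assembly, G protein and REST lists lie mostly right of the dashed line, as do 77.5% of all listed protein_coding genes. The auxiliary subunit list lies mostly left of it or has no row. Of the other receptor lists, P2X has 3 of 7 genes right of the line, the other 4 having no row, and adenosine has 2 of 4.

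REST is a repressor that keeps many neuronal genes off outside neurons, and several receptor genes are among its known targets. Of 11 genes of the REST repressor complex, 10 were at 1 FPKM or more (90.9%), against 77.5% of all listed protein_coding genes. HDAC2 (45.4 FPKM), CTDSP2 (36.7), CTDSP1 (27.3) and KDM1A (27.2) led. REST itself was at 16.6 FPKM, and CTDSPL (8.46) and RCOR2 (0.145) were lowest. Whether REST acts on the receptor genes in these cells was not tested. RefSeq promoter windows, 250 bases before to 50 after a start (GRCh38.p14), were at hand for 51 of the 68 receptor genes (75.0%) and were searched on both strands for letters of the REST binding site. As fewer than 80% had a window, a comparison of the receptor genes as a set with all genes is void, and the shares of all genes say only how common the letters are. The left part, TTCAGCACC, was found in GRIA2 and GRM2, 2 of the 51 (3.92%); 0.469% of all 27305 genes with a window hold it. The right part, GGACAG, was found in 20 of the 51 (39.2%), and 24.0% of all genes hold it. Those 20 are 11 of 27 members (40.7%) and 9 of 24 receptor genes without a coding row (37.5%). The members with the highest FPKM, GABRA3, GRIA3 and CHRNA5, had no window and were not searched. AGCACCNNGGACAG, which joins the end of the left part to the right part and overlaps both, was found in GRIA2, 1 of the 51 (1.96%), and 0.0659% of all genes hold it.

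Of the 3 windows of GRIA2, the one that holds the joined letters is shown beside the one of 2 windows of its neighbour GLRB that holds the right part, to show how the joined letters and the right part alone look in a window. Capitals mark 1 match in each window, on the minus strand of the printed sequence: AGCACCNNGGACAG for GRIA2 and GGACAG for GLRB. Left in lower case in the GRIA2 window are the rest of the left part, next to the capitals, and another GGACAG on the plus strand.
GRIA2 (chr4:157220369-157220668, plus strand): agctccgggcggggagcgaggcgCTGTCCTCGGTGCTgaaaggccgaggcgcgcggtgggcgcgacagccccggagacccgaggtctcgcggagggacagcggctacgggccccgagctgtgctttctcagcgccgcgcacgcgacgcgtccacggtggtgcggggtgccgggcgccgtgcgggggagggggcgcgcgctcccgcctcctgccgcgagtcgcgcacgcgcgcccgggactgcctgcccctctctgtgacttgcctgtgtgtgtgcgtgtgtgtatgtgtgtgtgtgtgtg
GLRB (chr4:157075900-157076199, plus strand): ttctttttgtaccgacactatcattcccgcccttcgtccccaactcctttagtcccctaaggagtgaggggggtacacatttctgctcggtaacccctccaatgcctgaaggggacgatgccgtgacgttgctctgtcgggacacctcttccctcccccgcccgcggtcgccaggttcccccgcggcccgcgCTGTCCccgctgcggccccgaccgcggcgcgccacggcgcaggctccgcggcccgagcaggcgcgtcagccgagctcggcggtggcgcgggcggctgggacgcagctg
GRM2, the other gene with the left part, was at 0.0365 FPKM. Its window also holds GGACAG after the left part on the same strand, but not at the fixed spacing of the joined letters. A match of letters is a description of the window; binding was not measured here.

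Markers of the cells themselves are given once. Their list totals include genes without a row, and 77.5% of all listed protein_coding genes reached 1 FPKM. All 6 mesenchymal glioma markers were at 1 FPKM or more, with VIM at 2420 FPKM, and of 8 astrocyte markers 4 were, with GJA1 at 143 but GFAP, the defining filament protein, at 0.331 FPKM. Of 12 neuron markers 3 were at 1 FPKM or more, TUBB3 (43.5), SNAP25 (16.3) and MAP2 (1.37), with RBFOX3 at 0.0940 and no row for SYP, SYN1 and STMN2. Of 11 skeletal muscle markers TNNT1 (28.1 FPKM) alone reached 1 FPKM, and MYOD1 and MYOG, which define muscle cells, had no row. None of 7 oligodendrocyte markers reached 1 FPKM, and 2 of 5 endothelial and 2 of 5 immune markers did, with KDR (3.29 FPKM), TEK (1.23), CD68 (52.3) and CSF1R (1.51) above the threshold and no row for PECAM1 and PTPRC. Whether other cells contributed to the receptor levels was not tested.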

How the data were processed

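Values of 1 mRNA library and 1 small RNA library of U87MG cells were used as deposited. The mRNA values are FPKM per Ensembl gene, given by the authors, per the file headers. The miRNA values are raw read counts per mature miRNA, deposited without normalization, per the file headers. The submitters' processing notes name cutadapt and the builds hg19 and GRCh37. What aligner, FPKM program and annotation were used, and how shared reads were handled, is not given in the sources used here; nor is how mRNA was selected, since the labels repeat the small RNA protocol for that library. Deposited piRNA counts were left out.

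Genes were matched by symbol, then by Ensembl identifier; the gene name table held 34 of the 35 members' identifiers. RefSeq GRCh38.p14 tables gave names, gene order, overlaps and sequences only. With 1 library no test was run. Counts at 1 FPKM were set beside those of all listed protein_coding genes. Shares of miRNA reads have exact Clopper-Pearson 95% intervals (scipy 1.17.1, Python 3.11.15). The name rule and the counting were tested on made-up tables.

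Members, and of each companion list the 4 highest and the 2 lowest genes, were to be named, but a few items are not reported here, although counts and medians include them; any further name was picked with its value known. The members and lists were chosen with earlier results of these data known; the promoter letters were chosen after the files were seen. Promoter composition was not compared, because 27 of 35 members (77.1%) and 51 of the 68 genes of the name rule (75.0%) had a window, fewer than 80%. Protein sequences were not used here.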

Additional observations from a re-analysis of the deposited data

How the results depend on the processing

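At a threshold of 0.5 FPKM 11 members were expressed, at 2 FPKM 7, and at 0.1 FPKM 23. At 0.1 FPKM all 8 families had a member and at 0.5 FPKM 7, against 5 at 1 FPKM. Of 32 alternative values of single families, 16 moved: counts by over 1.5 times, medians by any amount. With genes lacking a row set to 0, or with GABRR3 added (chosen after seeing the data), the count at 1 FPKM was again 8; without members that overlap another gene or share sequence it was 7. The median FPKM of 0.255 became 0.384 over members at 0.1 FPKM or more, 0.0222 with genes lacking a row at 0, 0.247 without overlapping members, and 0.672 and 0.394 FPKM for means of log2(FPKM + 1) and of log2(FPKM + 0.1) turned back to FPKM. AMPA and glycine were the 2 families with a median of 1 FPKM or more; with genes lacking a row at 0 there were 0. Companion genes at the threshold numbered 72, against 80 at 0.5 and 65 at 2 FPKM. Of 8 mature miRNAs with a row inside receptor genes, 6 had at least 10 reads. No paired analysis was possible because each kind of library has 1 sample and no result comes from a test. The unknown depth of the mRNA library limits the values under 0.1 FPKM most, since the reads behind them are not given.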
